A study of Mus musculus with 10 samples.

Results

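The thick ascending limb of the kidney tubule was followed through 6 genes, Umod, Egf, Slc12a1, Kcnj1, Ptger3 and Casr, which encode secreted proteins, salt and potassium transporters, and receptors of that segment. They were taken by symbol from the 13299 genes measured in whole kidneys of old mice, and all 6 were present and passed the filter on low values. The set was put together with the comparison between genotypes already known, so the values of its genes, and the number of them past a threshold, are given as a description and support no test.

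The thick ascending limb reabsorbs salt without water and thereby dilutes the tubular fluid and builds the osmotic gradient of the medulla. Sodium, potassium and chloride enter its cells through a common cotransporter, potassium returns to the lumen through a channel, and other pumps and channels complete the transport on the blood side. Its cells also release the urinary proteins uromodulin and epidermal growth factor, and sense extracellular calcium and prostaglandin E2.

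Whole kidneys of 5 Rragc S74N/+ mice were compared with those of 5 Rragc +/+ mice, all described by the labels as old, at 1.5 years. Rragc encodes RagC, a small GTPase that couples nutrient supply to the kinase mTORC1, and S74N is an activating substitution that was knocked into 1 allele with Cas9, so every cell of the animal carried it. The study kept its mice on a C57BL/6 background. Libraries were sequenced from the 3′ end of mRNA, and values are read counts that the authors divided by a size factor per sample, called normalized counts here. Nothing in the labels links a replicate of one genotype to a replicate of the other, and p-values measure the spread between these samples.

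Depth ran from 4488493 to 5797251 reads per library. Rragc lay between 90.1 and 204 normalized counts, and reads from the 3′ end cannot tell its alleles apart. Of 13236 genes tested with limma, 798 (6.03%) passed an adjusted p of 0.05 (Benjamini-Hochberg), 457 (3.45%) higher and 341 (2.58%) lower in Rragc S74N/+ kidneys, and the median log2 fold change of all tested genes was -0.01. The numbers in the sample titles fell into 2 ranges, under and over 200, each with both genotypes. Rragc +/+ replicates 4 and 5 and Rragc S74N/+ replicates 4 and 5 made up the higher range. The labels do not call these ranges batches.

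Umod, Egf and Ptger3 were the members with the lowest levels in Rragc S74N/+ relative to Rragc +/+ kidneys, while Slc12a1, another member, was not lower. The sequences just upstream of the first annotated start of these 4 genes are therefore shown. Each ends at the base before the first start that RefSeq or GENCODE annotates for the gene, which for Umod, Slc12a1 and Ptger3 lies upstream of the start used in the motif search. They are RefSeq sequences of build GRCm38.p6, read 5′ to 3′ on the strand of the gene, from chr7:119479283-119479482 on the minus strand for Umod, chr3:129755323-129755522 on the minus strand for Egf, chr3:157566626-157566820 on the plus strand for Ptger3 and chr2:125152350-125152504 on the plus strand for Slc12a1. The reads themselves were aligned to GRCm39, and no position was carried from one build to the other. Capitals mark a match to GTTAAT, which is 1 arm of the palindrome bound by HNF1 factors.
Umod: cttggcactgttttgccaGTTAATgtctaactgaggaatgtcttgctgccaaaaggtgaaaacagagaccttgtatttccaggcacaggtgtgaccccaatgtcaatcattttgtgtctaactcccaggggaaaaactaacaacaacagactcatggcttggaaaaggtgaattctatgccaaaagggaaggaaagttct
Egf: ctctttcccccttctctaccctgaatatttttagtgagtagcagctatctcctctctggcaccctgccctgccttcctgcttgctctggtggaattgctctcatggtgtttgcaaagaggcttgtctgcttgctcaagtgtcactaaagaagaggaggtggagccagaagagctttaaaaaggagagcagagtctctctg
Ptger3: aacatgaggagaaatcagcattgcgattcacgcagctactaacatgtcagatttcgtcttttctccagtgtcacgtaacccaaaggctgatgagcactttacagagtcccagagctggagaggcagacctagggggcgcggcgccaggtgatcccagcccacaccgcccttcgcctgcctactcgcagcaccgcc
Slc12a1: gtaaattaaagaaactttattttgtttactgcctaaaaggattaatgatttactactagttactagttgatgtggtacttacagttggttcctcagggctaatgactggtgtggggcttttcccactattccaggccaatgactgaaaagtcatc

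The 250 bases before each RefSeq start were searched on both strands for GTTAAT, for the E-box core CACGTG, for AAGGTCA, the element of estrogen-related receptors, and for TATAAA. The 6 members had 7 such windows, and only the window of Umod held any of the 4 motifs, the GTTAAT in capitals above. Over all 32851 promoter windows, GTTAAT stood in 6.43%, CACGTG in 6.02%, AAGGTCA in 4.08% and TATAAA in 12.4%.

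Of the 6 genes, Umod, Egf and Ptger3 were lower in every Rragc S74N/+ kidney than in any Rragc +/+ kidney, whereas the values of Slc12a1, Kcnj1 and Casr overlapped between genotypes. Mean levels in Rragc S74N/+ were 36.5% of those in Rragc +/+ kidneys for Umod, 48.7% for Egf and 24.2% for Ptger3, compared with 106% for Slc12a1, 70.2% for Kcnj1 and 89.0% for Casr. The groups were apart in 3 of 6 members, beside 8.16% of all tested genes (4.01% in the lower direction). The limma threshold was passed by 3 of 6, beside 6.03% of all tested genes (2.58% in the lower direction). Since the members were chosen on this contrast, nothing is read from these counts. In whole tissue, fewer cells of the segment and less mRNA per cell cannot be told apart.

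**Figure D1:**
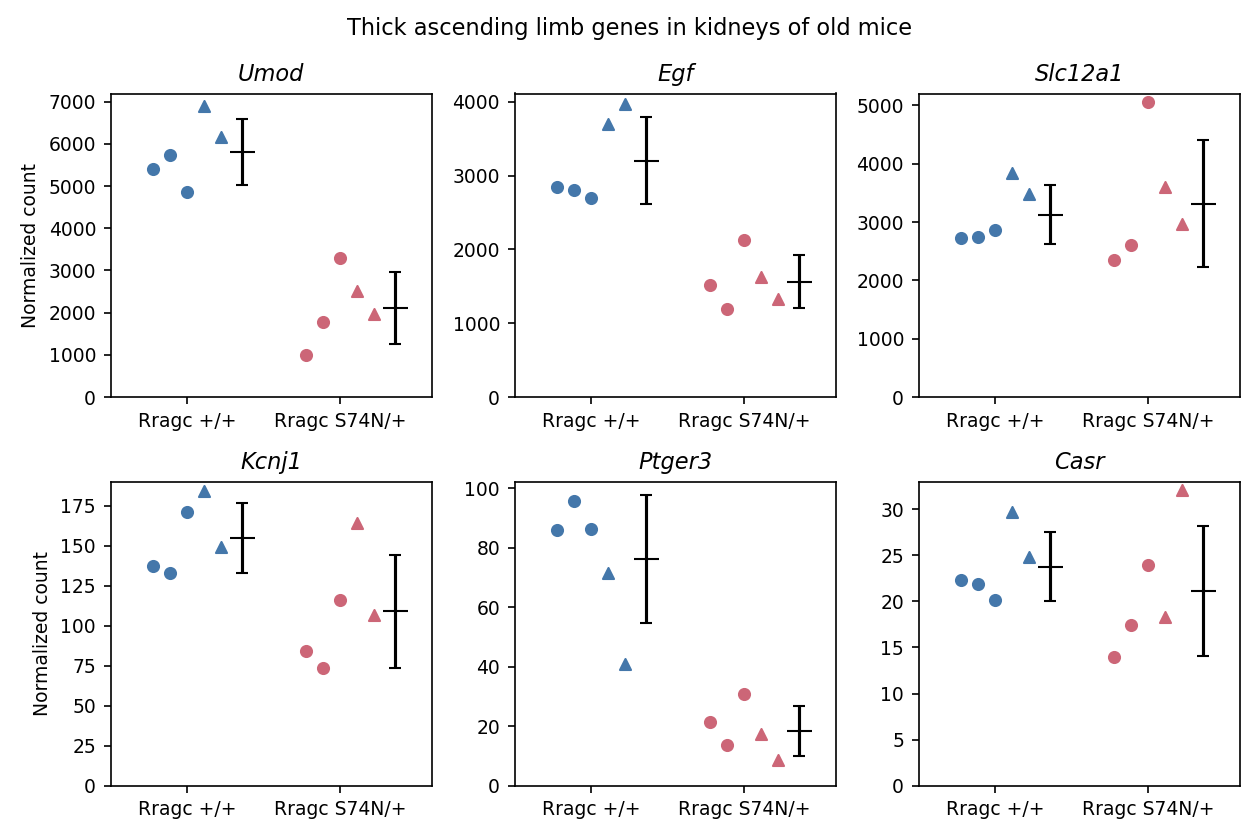
Normalized counts of the 6 genes (y axes, each from 0) in Rragc +/+ (blue) and Rragc S74N/+ (red) kidneys, replicates 1 to 5 from left to right, with circles for title numbers under 200 and triangles for those over 200, and the mean ± SD beside the points (n = 5). The red points of Umod, Egf and Ptger3 all lie below the blue ones, while those of Slc12a1, Kcnj1 and Casr spread across them.

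Umod encodes uromodulin, the most abundant protein of normal urine, which is anchored in the apical membrane of thick ascending limb cells and shed into the lumen. In Rragc +/+ replicates 1 to 5 its normalized counts were 5392, 5726, 4848, 6897 and 6167. In Rragc S74N/+ replicates 1 to 5 they were 1005, 1785, 3306, 2517 and 1979. The highest Rragc S74N/+ kidney, replicate 3, was still below the lowest Rragc +/+ kidney, and Rragc S74N/+ replicate 1 was the lowest of all 10 samples. The mean was 5806 ± 777 in Rragc +/+ and 2119 ± 857 in Rragc S74N/+ (SD, n = 5 each), a log2 fold change of -1.55 ± 0.23 (SE). The spread was wider among the Rragc S74N/+ kidneys, with a coefficient of variation of 40.5% against 13.4%. Within the lower and within the higher title numbers the log2 fold change was -1.55 in each.

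Egf encodes the precursor of epidermal growth factor, a membrane protein from which the growth factor is released and of which the distal nephron is a major source. Its normalized counts were 2839, 2798, 2696, 3701 and 3972 in Rragc +/+ replicates 1 to 5. They were 1515, 1200, 2127, 1631 and 1329 in Rragc S74N/+ replicates 1 to 5. The groups did not overlap, and replicate 3 was the highest Rragc S74N/+ sample here as it was for Umod. Egf averaged 3201 ± 590 in Rragc +/+ and 1560 ± 357 in Rragc S74N/+ kidneys (SD, n = 5 each), with a log2 fold change of -1.05 ± 0.16 (SE). Both Rragc +/+ samples of the higher title numbers exceeded the other 3, and the log2 fold change was -0.82 within the lower and -1.38 within the higher range.

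Slc12a1 encodes the sodium-potassium-chloride cotransporter NKCC2, the target of loop diuretics and the gene that defines this segment. Rragc +/+ replicates 1 to 5 had 2724, 2739, 2868, 3842 and 3474 normalized counts. Rragc S74N/+ replicates 1 to 5 had 2343, 2608, 5062, 3609 and 2968. The groups overlapped, since replicates 1 and 2 of Rragc S74N/+ were below all Rragc +/+ samples and replicate 3 was above all of them. The means were 3130 ± 503 and 3318 ± 1084 (SD, n = 5 each), and the log2 fold change of 0.04 ± 0.18 (SE) had no settled sign. It was -0.12 without Rragc S74N/+ replicate 3, and it was 0.18 within the lower and -0.16 within the higher title numbers.

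Kcnj1 encodes ROMK, the apical channel that returns potassium to the lumen and that is also used by principal cells further downstream. Its normalized counts were 138, 133, 171, 184 and 149 in Rragc +/+ replicates 1 to 5. They were 83.9, 73.7, 116, 164 and 107 in Rragc S74N/+ replicates 1 to 5. All Rragc S74N/+ samples but replicate 4 were below the lowest Rragc +/+ sample. The mean was 155 ± 21.9 in Rragc +/+ and 108.9 ± 35.2 in Rragc S74N/+ kidneys (SD, n = 5 each), and the log2 fold change was -0.55 ± 0.19 (SE). It was -0.71 without Rragc S74N/+ replicate 4, in which fit the number of members past the threshold rose from 3 to 4.

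Ptger3 encodes EP3, a receptor for prostaglandin E2 that lowers cyclic AMP and thereby opposes vasopressin in the thick ascending limb and the collecting duct. Rragc +/+ replicates 1 to 5 had 86.1, 95.7, 86.4, 71.6 and 40.8 normalized counts. Rragc S74N/+ replicates 1 to 5 had 21.4, 13.6, 31.0, 17.3 and 8.74. The groups did not overlap, and replicate 5 was the lowest sample of each genotype. Ptger3 averaged 76.1 ± 21.6 in Rragc +/+ and 18.4 ± 8.45 in Rragc S74N/+ kidneys (SD, n = 5 each), with a log2 fold change of -2.05 ± 0.31 (SE), the lowest of the 6. In contrast to Umod, Egf, Slc12a1 and Casr, the Rragc +/+ samples of the higher title numbers were below the other 3 for Ptger3. The log2 fold change was -2.05 within the lower and -2.04 within the higher range.

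Casr encodes the calcium-sensing receptor, which in this segment lies on the blood side and restrains salt and calcium reabsorption. It had 22.4, 21.8, 20.2, 29.7 and 24.9 normalized counts in Rragc +/+ replicates 1 to 5. It had 14.0, 17.4, 24.0, 18.3 and 32.1 in Rragc S74N/+ replicates 1 to 5. The values crossed, with the lowest and the highest of all 10 samples both in Rragc S74N/+ kidneys. The mean was 23.8 ± 3.71 in Rragc +/+ and 21.2 ± 7.07 in Rragc S74N/+ (SD, n = 5 each), and the log2 fold change was -0.20 ± 0.26 (SE).

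The members were next set against Slc12a1 of the same sample, a ratio from which the size factor of the sample drops out. Umod per Slc12a1 was 1.98, 2.09, 1.69, 1.80 and 1.78 in Rragc +/+ replicates 1 to 5. It was 0.429, 0.685, 0.653, 0.697 and 0.667 in Rragc S74N/+ replicates 1 to 5. The groups did not overlap, and replicate 3, the highest Rragc S74N/+ sample for both genes, had a ratio within the range of the others. The ratio averaged 1.87 ± 0.164 in Rragc +/+ and 0.626 ± 0.112 in Rragc S74N/+ kidneys (SD, n = 5 each), a log2 difference of -1.59 ± 0.14 (SE).

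Egf per Slc12a1 was 1.04, 1.02, 0.940, 0.963 and 1.14 in Rragc +/+ replicates 1 to 5. It was 0.647, 0.460, 0.420, 0.452 and 0.448 in Rragc S74N/+ replicates 1 to 5. Again the groups did not overlap, and Rragc S74N/+ replicate 1, the lowest for Umod per Slc12a1, was the highest of its genotype. The ratio averaged 1.02 ± 0.0795 in Rragc +/+ and 0.485 ± 0.0915 in Rragc S74N/+ kidneys, a log2 difference of -1.09 ± 0.12 (SE, n = 5 each). Within Rragc +/+ the coefficient of variation was 8.78% for Umod per Slc12a1 and 7.78% for Egf per Slc12a1, lower than the 13.4% of Umod and the 18.4% of Egf alone.

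Ptger3 per Slc12a1 also had groups that did not overlap, at 0.0254 ± 0.00980 in Rragc +/+ and 0.00564 ± 0.00228 in Rragc S74N/+ kidneys (SD, n = 5 each), a log2 difference of -2.16 ± 0.40 (SE). Kcnj1 per Slc12a1 overlapped between genotypes at 0.0499 ± 0.00607 and 0.0337 ± 0.00857, a log2 difference of -0.60 ± 0.19 (SE). Casr per Slc12a1 overlapped at 0.00762 ± 0.000513 and 0.00666 ± 0.00244, a log2 difference of -0.26 ± 0.21 (SE). Umod per Egf, the ratio of the secreted proteins, was 1.83 ± 0.181 in Rragc +/+ and 1.35 ± 0.384 in Rragc S74N/+ kidneys and overlapped, with Rragc S74N/+ replicate 1 at 0.663 apart from the rest of its group. The log2 fold changes ran, from the lowest, through Ptger3, Umod, Egf, Kcnj1, Casr and Slc12a1. For each pair of neighbours in this order the log2 difference within a sample overlapped between genotypes. The neighbours were apart by 0.50 ± 0.45 for Ptger3 and Umod, by 0.50 ± 0.25 for Umod and Egf, by 0.50 ± 0.21 for Egf and Kcnj1, by 0.35 ± 0.25 for Kcnj1 and Casr and by 0.25 ± 0.21 (SE) for Casr and Slc12a1. Ratios between genes depend on how each 3′ end was counted, so only the difference between genotypes is described, not the level.

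**Figure D2:**
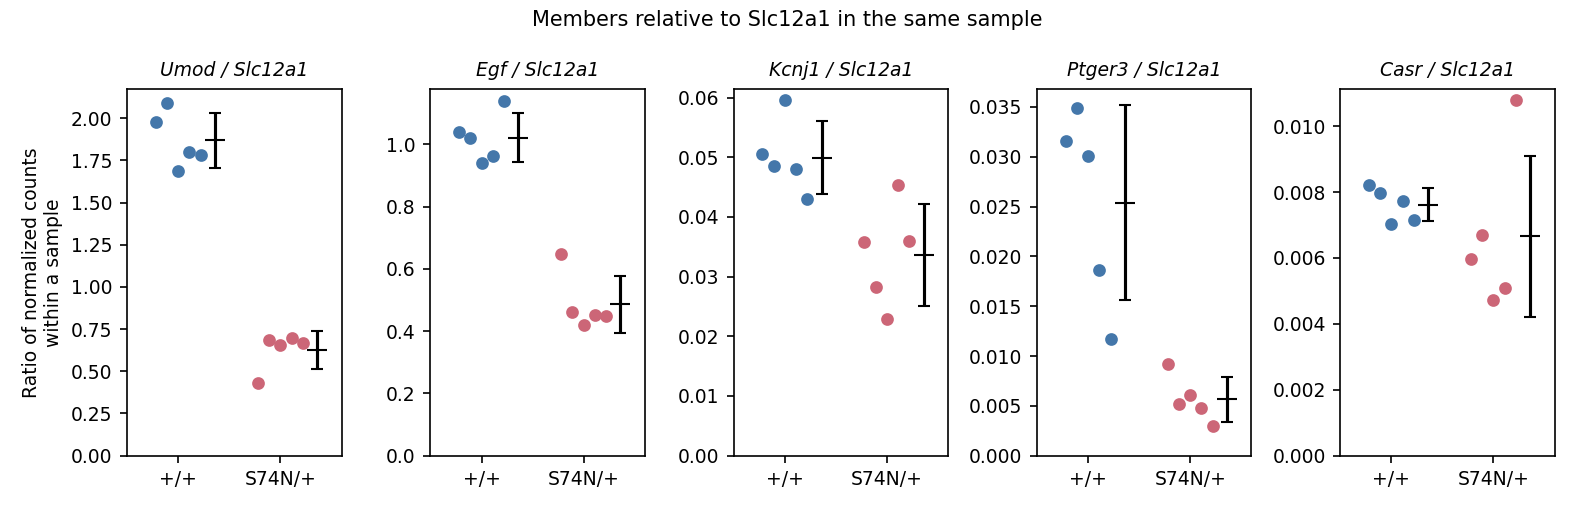
Ratio of the normalized counts of each other member to Slc12a1 in the same sample (y axes, each from 0) for Rragc +/+ (blue) and Rragc S74N/+ (red) replicates 1 to 5 from left to right, with the mean ± SD beside them (n = 5). The ratios of Umod, Egf and Ptger3 separate the genotypes, with Umod per Slc12a1 from 1.69 to 2.09 in Rragc +/+ and from 0.429 to 0.697 in Rragc S74N/+.

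To see how the members vary together apart from the genotype, each log2 value was taken as its deviation from the mean of its genotype. Over the 15 pairs of members and 10 samples, 14 Pearson correlations were positive. Spearman's rho was computed on ranks formed within each genotype. By an exact permutation test that permuted samples within each genotype (14400 arrangements, two-sided), 0 of 15 passed after Benjamini-Hochberg adjustment for either Pearson's r or Spearman's rho, while 2 had an unadjusted p under 0.05 for r and 4 for rho. The highest was that of Umod with Slc12a1, with r = 0.892 (exact permutation p = 0.00479, adjusted 0.0552) and rho = 0.85 (exact permutation p = 0.00931, adjusted 0.096). Leaving out Rragc S74N/+ replicates 1 and 3, the samples farthest out for Umod, gave r = 0.829. Egf with Slc12a1 had r = 0.836 (exact permutation p = 0.00736, adjusted 0.0552) and rho = 0.6 (exact permutation p = 0.109, adjusted 0.242), and r = 0.678 without the samples farthest out for Egf, Rragc +/+ replicate 5 and Rragc S74N/+ replicate 3. Slc12a1 with Kcnj1 had r = 0.645 (exact permutation p = 0.119, adjusted 0.446) and rho = 0.8 (exact permutation p = 0.0192, adjusted 0.096). The pairs of Ptger3 had r from -0.414 with Casr to 0.196 with Slc12a1. The points share their library and size factor.

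**Figure D3:**
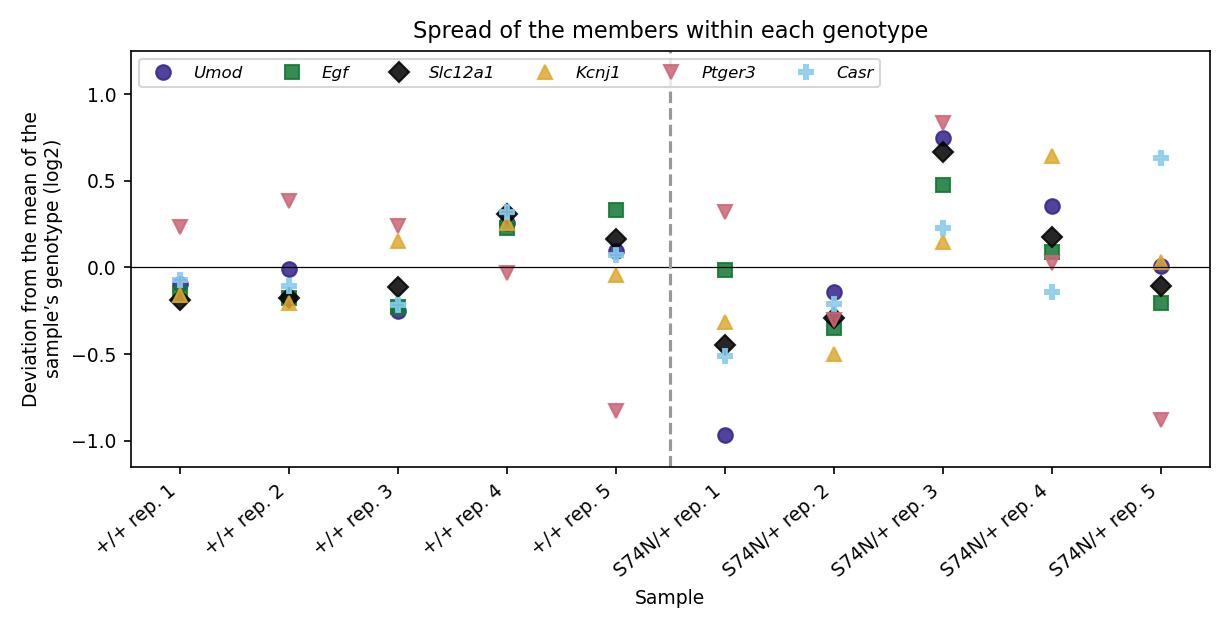
Deviation of each member from the mean of the sample's genotype (y axis, log2) in the 10 samples (x axis), with 1 symbol per gene. In Rragc S74N/+ replicate 3 all 6 genes lie above the mean of their genotype, Umod by 0.75 and Slc12a1 by 0.67, and in Rragc S74N/+ replicate 1 Umod lies 0.97 below it and Egf near it.

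Among the 7742 genes with a mean of at least 50 normalized counts, the 8 whose deviations were most alike to the mean deviation of the members over the 10 samples were Slc12a1 (Pearson r = 0.958), Slc35a3 (0.928), Slc22a5 (0.919), Fads6 (0.904), Cdk16 (0.899), Mpc1 (0.887), Umod (0.879) and Ppp1r1b (0.876). Slc12a1 and Umod are themselves part of that mean. Ranking 7742 genes over 10 samples gives high r at the top by selection alone, so these values support no test. Shared regulation was not tested. Slc35a3 encodes a Golgi nucleotide-sugar transporter, Slc22a5 a carnitine transporter, Mpc1 a subunit of the mitochondrial pyruvate carrier and Ppp1r1b an inhibitor of protein phosphatase 1. Between genotypes Fads6 was lower, by a log2 fold change of -0.99 ± 0.22 (SE, adjusted p = 0.0172 with limma). Slc35a3 differed by 0.02 ± 0.13 (SE, adjusted p = 0.941 with limma). Rragc S74N/+ replicate 3 carried part of the likeness, and without it r was 0.913 for Slc12a1, 0.888 for Slc35a3, 0.905 for Slc22a5, 0.866 for Fads6 and 0.77 for Ppp1r1b.

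Other genes of the segment were then examined in lists of transport, junction, regulatory and signaling genes. These lists were chosen with earlier results of these data known, so their counts and medians are a description and support no test. Of 67 such genes 60 were tested, of which 11 were lower and 0 higher in Rragc S74N/+ kidneys (limma, adjusted p under 0.05), beside 2.58% lower among all tested genes. An unadjusted p under 0.05 was found for 25 of the 60, and for 3360 of all 13236. On 8 of the samples the number lower was 17 with limma, 16 with edgeR and 17 with DESeq2, and on the reads of all 10 it was 11 with edgeR and 14 with DESeq2, with 0 higher in each of these fits. The log2 fold change was negative for 42 and positive for 18, with a median of -0.23 against -0.01 over all tested genes. Without Rragc +/+ replicate 1, replicate 2 or replicate 4 the number lower was 7 in each case, and without Rragc S74N/+ replicate 1 the number higher was 1. Cldn14, Calcr, Sctr, Areg, Ereg, Gp2 and Enox1 were not analysed here.

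Of 10 transport partners, not all of which lie on the blood side of the cell, 4 were lower and 0 higher, with a median of -0.62. Bsnd, which encodes the accessory channel subunit barttin, had 70.5, 106, 94.1, 62.0 and 59.7 normalized counts in Rragc +/+ replicates 1 to 5 and 26.1, 38.8, 39.99, 35.7 and 42.8 in Rragc S74N/+ replicates 1 to 5. Every Rragc S74N/+ sample was below every Rragc +/+ sample, and Bsnd fell by 1.06 ± 0.21 on the log2 scale (SE, adjusted p = 0.00897 with limma). Kcnj10, a basolateral potassium channel, went from 84.3 ± 3.85 to 44.7 ± 13.2 normalized counts, a log2 fold change of -0.95 ± 0.20 (SE, adjusted p = 0.0140 with limma).

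Claudins set the selectivity of the paracellular path, and 1 of 4 was lower and 0 higher, with a median of -0.13. Cldn10 had 607.5, 681, 588, 533 and 476 normalized counts in Rragc +/+ replicates 1 to 5. It had 183, 379, 459, 398 and 393.5 in Rragc S74N/+ replicates 1 to 5. Reads from the 3′ end do not tell transcripts that share that end apart, so these values are for the gene as a whole. The groups did not overlap, but Rragc S74N/+ replicate 1 was far below the others of its genotype. The log2 fold change was -0.72 ± 0.20 (SE, adjusted p = 0.0423 with limma), and the call was lost in 7 of the 10 fits that left out 1 sample. In these fits, the limma adjusted p was 0.0971, 0.119, 0.0743 and 0.0718 without Rragc +/+ replicates 1 to 4 and 0.0586, 0.0579 and 0.0676 without Rragc S74N/+ replicates 2, 4 and 5. Cldn16 and Cldn19, which form the paracellular route for calcium and magnesium in this segment and are named after their values were seen, did not pass. Cldn16 averaged 53.3 ± 14.0 and 76.1 ± 33.0 (log2 fold change 0.44 ± 0.27, SE, limma adjusted p = 0.32). Cldn19 averaged 158 ± 20.1 and 158 ± 63.0 (log2 fold change -0.07 ± 0.20, SE, limma adjusted p = 0.87).

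Among the regulators of the cotransporters, 3 of 11 were lower and 0 higher, with a median of -0.30. Wnk4 and Wnk1 encode kinases that sense chloride and switch on the kinases SPAK and OSR1, which phosphorylate the cotransporters. Wnk4 had 386, 446, 369, 415 and 342 normalized counts in Rragc +/+ replicates 1 to 5 and 183, 196, 249.9, 201 and 166 in Rragc S74N/+ replicates 1 to 5. Without overlap between the groups, Wnk4 fell by 0.98 ± 0.13 on the log2 scale (SE, adjusted p = 0.000506 with limma). Wnk1 went from 1731 ± 89.2 to 1243 ± 139 normalized counts, a log2 fold change of -0.48 ± 0.10 (SE, adjusted p = 0.0140 with limma). The Wnk1 values, read from the 3′ end, are for the gene as a whole. They do not tell a transcript with the kinase domain from one without it. Ppp1r1a, an inhibitor of protein phosphatase 1, went from 884 ± 116 to 503 ± 211, with groups that overlapped because Rragc S74N/+ replicate 3 had 865 normalized counts. Its log2 fold change was -0.89 ± 0.20 (SE, adjusted p = 0.0183 with limma), and the limma adjusted p rose to 0.0567, 0.0532 or 0.0502 without Rragc +/+ replicate 1, 2 or 4 and to 0.0544 without Rragc S74N/+ replicate 5.

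Of the transcription and segment genes, 3 of 11 were lower and 0 higher, with a median of -0.52. Ckb, the brain-type creatine kinase, had 1071, 941.5, 859, 1105 and 618 normalized counts in Rragc +/+ replicates 1 to 5 and 241.5, 256, 397, 292 and 232 in Rragc S74N/+ replicates 1 to 5, without overlap. It fell by 1.69 ± 0.17 on the log2 scale (SE, adjusted p = 3.98e-05 with limma). Wfdc15b, a WAP-domain gene with similar family members that may share its reads, went from 964 ± 179 to 175.5 ± 90.5, a log2 fold change of -2.59 ± 0.27 (SE, adjusted p = 4.63e-05 with limma), which was below that of any member. Esrrb, an orphan nuclear receptor, went from 51.3 ± 12.1 to 23.9 ± 11.7 with groups that overlapped, a log2 fold change of -1.16 ± 0.29 (SE, adjusted p = 0.0285 with limma). Without Rragc +/+ replicates 1, 2, 3 or 4 the limma adjusted p of Esrrb was 0.0605, 0.0763, 0.0515 or 0.0752, and without Rragc S74N/+ replicate 5 it was 0.0715.

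The called genes named above kept their direction within each range of title numbers, but not their size or their call. The log2 fold change within the lower and the higher range was -1.35 and -0.63 for Bsnd, -0.98 and -0.35 for Cldn10 and -0.60 and -0.30 for Wnk1. It was -0.98 and -0.91 for Kcnj10. These 4 genes passed in neither range (limma adjusted p from 0.0556 to 0.273). Wnk4 (-0.94 and -1.04), Ppp1r1a (-0.83 and -0.97) and Esrrb (-1.01 and -1.38) passed within the higher range only, and Ckb (-1.71 and -1.66) and Wfdc15b (-2.72 and -2.39) passed in both. Whether the ranges differ was not tested.

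Signaling genes around the receptors and ligands were not called with limma on all samples. Of 14 genes for hormone receptors and cyclic AMP, 0 passed with limma (3 at an unadjusted p under 0.05), 2 each with limma, edgeR and DESeq2 on 8 samples, 0 with edgeR and 1 with DESeq2 on all 10, and 1 with limma without Rragc S74N/+ replicate 3, and the median log2 fold change was 0.00084. Gnas, the stimulatory G protein subunit, averaged 3146 ± 184 in Rragc +/+ and 3360 ± 290 in Rragc S74N/+ kidneys, a log2 fold change of 0.09 ± 0.10 (SE, adjusted p = 0.60 with limma). Gnai2, an inhibitory subunit of the kind that EP3 couples to, differed by 0.05 ± 0.09 (SE, adjusted p = 0.79 with limma), and the parathyroid hormone receptor Pth1r by 0.06 ± 0.11 (SE, adjusted p = 0.77 with limma). Of 8 ligands and receptors of the EGF and ErbB family other than Egf, 0 passed with limma (2 at an unadjusted p under 0.05) 1 each with limma, edgeR and DESeq2 on 8 samples, and 0 with edgeR and 1 with DESeq2 on all 10, with a median of -0.06. With limma 1 of them passed without Rragc +/+ replicate 5 and without Rragc S74N/+ replicate 1, 2 or 3. The EGF receptor gene Egfr averaged 196 ± 14.3 and 203 ± 20.7 (log2 fold change 0.05 ± 0.12, SE, limma adjusted p = 0.83). Hbegf, another ligand of that receptor, differed by -0.01 ± 0.19 and Erbb2, its dimerization partner, by -0.14 ± 0.15 (SE, adjusted p = 0.98 and 0.60 with limma).

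Hpn encodes hepsin, the protease that releases uromodulin from the membrane, and Prss8 encodes prostasin, another membrane serine protease. Of these, 0 of 2 passed with limma (2 at an unadjusted p under 0.05) or with edgeR or DESeq2 on 8 samples. Hpn averaged 422 ± 63.5 and 303 ± 117 (log2 fold change -0.58 ± 0.25, SE, limma adjusted p = 0.16), and Prss8 averaged 605 ± 71.2 and 465 ± 76.6 (log2 fold change -0.39 ± 0.13, SE, limma adjusted p = 0.092).

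The neighbours of the thick ascending limb were looked at as well. Of 4 genes of the macula densa, the sensor cells at its end, 1 was higher and 0 lower. Pappa2, a protease of insulin-like growth factor binding proteins, had 2.24, 1.04, 2.88, 13.1 and 1.99 normalized counts in Rragc +/+ replicates 1 to 5 and 35.4, 16.5, 17.0, 40.7 and 31.1 in Rragc S74N/+ replicates 1 to 5. The groups did not overlap, and it rose by 2.76 ± 0.50 on the log2 scale (SE, adjusted p = 0.00576 with limma). Within the lower title numbers its log2 fold change was 2.94 (limma adjusted p = 0.0787) and within the higher ones 2.50 (0.0199). Of 4 genes of the osmotic response of the medulla, 0 passed with limma (2 at an unadjusted p under 0.05), 1 each passed with limma, edgeR and DESeq2 on 8 samples, and 0 passed with edgeR or DESeq2 on all 10. Slc5a3, the myo-inositol transporter, had a log2 fold change of -0.57 ± 0.19 (SE, adjusted p = 0.079 with limma), which was -0.77 without Rragc S74N/+ replicate 3 (limma adjusted p = 0.00465). The taurine transporter Slc6a6 differed by -0.44 ± 0.16 (SE, adjusted p = 0.0996 with limma) and the osmotic regulator Nfat5 by 0.19 ± 0.18 (SE, adjusted p = 0.53 with limma).

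Egf and several of the genes that fell, among them Bsnd, Kcnj10, Wnk1, Wnk4 and Ppp1r1a, are also used by the distal convoluted tubule, the next segment. Its markers were lower in 5 of 5 cases, with a median log2 fold change of -1.54, and their summed level was 4290 to 5417 normalized counts in Rragc +/+ and 1109 to 1858 in Rragc S74N/+ kidneys. Slc12a3, its sodium-chloride cotransporter, fell by 1.94 ± 0.14 and Pvalb by 4.93 ± 0.55 on the log2 scale (SE, adjusted p = 1.61e-06 and 9.4e-05 with limma). Pvalb was at 0 normalized counts in Rragc S74N/+ replicate 5. The part of this segment in the values of Egf and these genes was not tested. By comparison, proximal tubule markers had 1 of 9 lower and 0 higher, with a summed level of 49220 to 63040 in Rragc +/+ and 47490 to 62590 in Rragc S74N/+ kidneys.

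Markers of other cells were counted in the same way. Connecting tubule and principal cell markers, which bear on Kcnj1 and Ptger3, had 1 of 8 lower and 0 higher (median 0.12, summed level 1919 to 4588 in Rragc +/+ and 1830 to 3486 in Rragc S74N/+). Macrophage markers had 2 of 6 higher (summed level 530 to 704 against 827 to 1084), fibroblast markers 2 of 6 higher (733 to 1284 against 1160 to 1918), podocyte markers 1 of 5 higher (697 to 816 against 831 to 1048) and tubule injury markers 2 of 7 higher, Havcr1 and Lcn2 (2374 to 2760 against 1944 to 3158), with 0 lower in each. Intercalated cell markers had 1 of 6 higher and 2 lower. Endothelial (6 tested), thin limb (3), T cell (2) and B and plasma cell markers (3) had 0 calls with limma, with 1, 0, 2 and 2 at an unadjusted p under 0.05. The part of these cells in the values of the members was not tested.

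**Figure D4:**
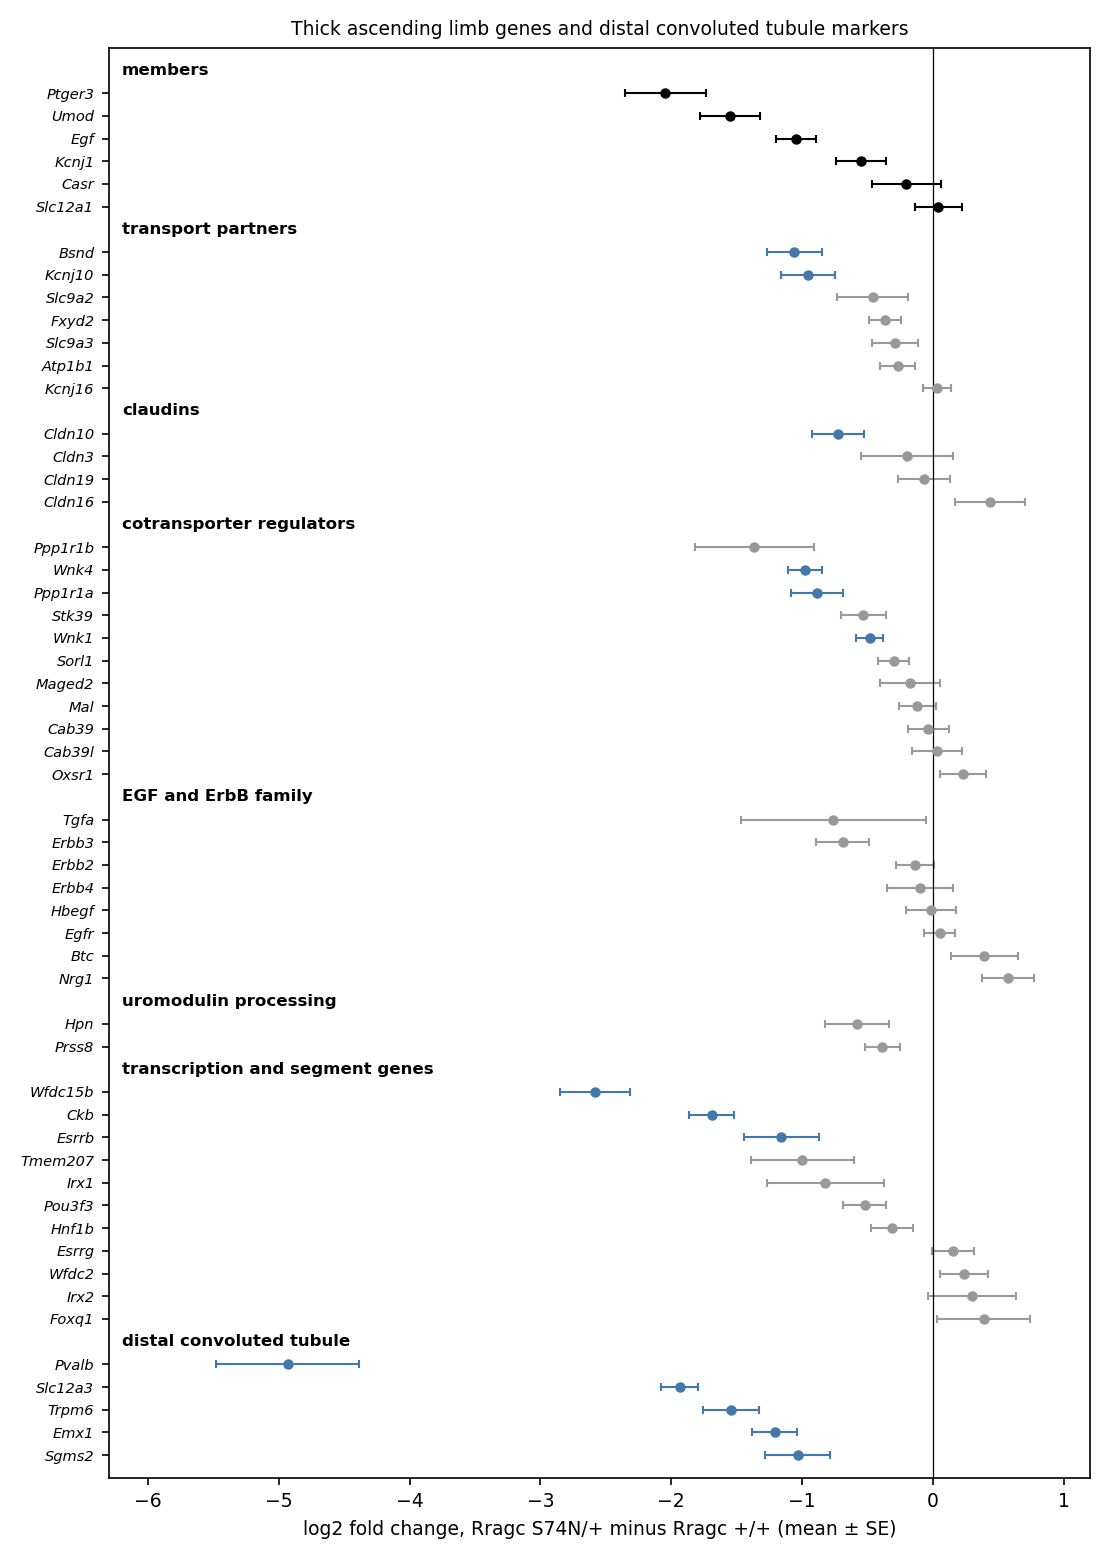
Log2 fold change between Rragc S74N/+ and Rragc +/+ kidneys (x axis, point and bar giving the estimate ± SE, n = 5 each) for the 6 members (black, not coloured by their calls), for other thick ascending limb genes that are reported here, by list, and for distal convoluted tubule markers, in blue where lower at a limma adjusted p under 0.05 and in grey where not called. The members run from -2.05 for Ptger3 to 0.04 for Slc12a1, and the blue points from -4.93 for Pvalb to -0.48 for Wnk1.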

How the data were processed

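Whole kidney RNA of 10 mice was measured by 3′ mRNA sequencing, with 300 ng of total RNA per library. Per the study's methods and the submitters' processing notes, the authors checked reads with FastQC 0.11.7, aligned them to GRCm39 with TopHat2 2.0.10, Bowtie 1.0.0 and SAMtools 0.1.19, counted sense-strand reads per GENCODE gene with HTSeq 0.6.1, and deposited a signal table of normalized counts, that is counts divided by a size factor per sample, with 1 row per gene symbol.

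Low values lay at whole multiples of 1 step per sample, and the reads recovered from them were whole to within 0.01 for 100% of values and summed to 4488493 to 5797251 per library. In 2 columns the step was too near 1 to be told from it, so the count models were run on the other 8 samples and, added after seeing the data, on all 10.

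The values deposited are not raw counts, so limma 3.58.1 (R 4.3.3) was applied to log2(normalized count + 1) (genotype as the only term, eBayes with a variance trend, two-sided, Benjamini-Hochberg over all genes tested, threshold 0.05) on the 13236 genes with at least 5 normalized counts in at least 5 samples, which left out 63. Fold changes are on that log2 scale, which understates those of low genes. Figures were drawn with matplotlib 3.10.9, and permutation tests used Python 3.11.15. The tests across genes were tested on simulated data.

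The members and the gene lists were chosen with earlier results of these data known. The text names the 6 members, every gene of a thick ascending limb list past the threshold and otherwise up to 3 of the highest mean, markers as counts with up to 3 named, and the 8 genes most alike to the members. Genes of the lists that do not appear in the table were not analysed here, and results on some other list genes are counted in their list but not reported singly here. Promoters came from RefSeq (GRCm38.p6), where all 6 members matched by symbol.

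Alternatives were pseudocounts of 0.5 and 5, no filter, a minimum mean of 50, equal totals, equal 75th percentiles, no variance trend, the range of title numbers as a term or taken separately, leaving out each sample, edgeR 4.0.16 (quasi-likelihood) and DESeq2 1.42.0.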

Additional observations from a re-analysis of the deposited data

Results flagged for a closer look

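Over 72 groups of 5 samples, made of the members, their ratios and the named genes in each genotype, 8 held a sample whose gap to the nearest other sample was a large part of the range of its group (Dixon's criterion at the 95% level), where chance gives about 1 in 20 groups, or 3.6.

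Of these, 4 were in Rragc S74N/+ replicate 1. Its Umod per Slc12a1 was 0.429, against 0.653 to 0.697 in the others of its genotype, its Egf per Slc12a1 was 0.647, against 0.420 to 0.460, and its Umod per Egf was 0.663, against 1.49 to 1.55. Its Cldn10 was 182.8 normalized counts, against 379 to 459. The ratios share genes, so they are not separate observations. The library held 4930328 reads, neither the fewest nor the most. Marker genes were not part of the search, but some of them also set this kidney apart from the others of its genotype. Its Lcn2 was 306.8 normalized counts, against 18.3 to 72.7, and its Dcn was 817.8, against 146 to 327. Both were picked after their values were seen, and other markers of the same lists did not follow them. Its Havcr1, a tubule injury marker like Lcn2, was the lowest of its genotype at 12.1, against 18.3 to 61.2. Its Col1a1, a fibroblast marker like Dcn, was 369, within the 312 to 579 of the others.

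Slc5a3 had 678.8 normalized counts in Rragc S74N/+ replicate 3, against 284 to 383 in the others of its genotype. In Rragc +/+ kidneys, Kcnj1 per Casr was 8.476 in replicate 3 against 6.0 to 6.21, Nfat5 was 357.1 normalized counts in replicate 3 against 214 to 254, and Pappa2 was 13.1 in replicate 4 against 1.04 to 2.88.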

How the results depend on the processing

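No paired analysis was possible because the labels carry no replicate numbers. The signs of Umod, Egf, Kcnj1, Ptger3 and Casr were kept in every alternative that gave a value (a minimum mean of 50 left Ptger3 and Casr out). Leaving out 1 sample gave -1.74 to -1.31 for Umod, -1.17 to -0.96 for Egf, -0.12 to 0.15 for Slc12a1, -0.71 to -0.43 for Kcnj1, -2.25 to -1.83 for Ptger3 and -0.36 to -0.08 for Casr. Egf was -1.38 within the higher title numbers. Members past the threshold numbered 3 to 4 without 1 sample and 1 within the lower title numbers, a fit on 6 samples.

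The 798 genes past the threshold (457 higher, 341 lower) became 391 (241 and 150) without the variance trend, 1402 (762 and 640) with DESeq2 on 8 samples, 1351 (783 and 568) with DESeq2 on 10 and 46 (12 and 34) within the lower title numbers. Equal totals gave 718 higher and 225 lower and shifted the median of all genes from -0.0126 to 0.0644 on the log2 scale. Leaving out 1 sample gave between 311 and 902 genes, of which between 186 and 503 were higher and between 125 and 424 lower.

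Of the other thick ascending limb genes, 11 lower became 6 without the variance trend, 17 with DESeq2 and 17 with limma on 8 samples, 14 with DESeq2 and 11 with edgeR on 10, 2 within the lower title numbers and 7 to 16 without 1 sample. The number higher was 0 to 1 without 1 sample. Without the variance trend the calls of Cldn10 (limma adjusted p = 0.113), Wnk1 (0.0551), Ppp1r1a (0.069) and Esrrb (0.0579) were lost. Equal totals lost Cldn10 (0.0596) and edgeR on 8 samples lost Wnk1 (0.0528). The causes of these shifts were not tested.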
